A study of Mus musculus with 18 samples.

Results

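The comparison described here is between the submandibular glands of Car6-/- mice and those of wild-type mice, measured on 6 of the 18 arrays of the series. The members were chosen by the array titles: 3 arrays of Car6-/- glands and 3 arrays of wild-type glands. The other arrays hold stomach and duodenum of the same genotypes, 6 arrays each. All animals were female C57BL/6 mice aged 2 months, and the series text describes separate animals as replicates. The labels give the genotype as Car6-/-, and how the allele was made is not stated in the sources used here. Each array holds RNA from gland tissue as dissected, so fewer cells of a type and less RNA per cell cannot be told apart.

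Car6 encodes carbonic anhydrase VI, the secreted member of a family of zinc enzymes that interconvert carbon dioxide and bicarbonate. The enzyme is made by serous acinar cells of salivary glands and leaves the gland with saliva. In the mouse submandibular gland, acini secrete fluid and proteins, ducts then change the salt content of the fluid, and granular convoluted tubules release kallikreins and growth factors. The sublingual gland lies in the same capsule, and the parotid gland and fat lie close by.

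Levels are given as log2 signal intensity after background correction and quantile normalization of the 6 arrays. On this scale undetected probes lie near 4 to 5 and in places above, as with Miip at 5.45 on wild-type replicate 2. A probe counted as detected where its detection p was under 0.01. After a filter of detection on at least 3 of the 6 arrays, 7074 genes or unnamed probes were tested, and 5885 of these were detected on all 6 arrays. Differences are Car6-/- minus wild type, with the standard error (SE) of the limma fit on 3 arrays against 3. Between 7868 and 9613 probes were detected per array. Of the variation between arrays, 23.3% of the sum of squares lay between genotypes and 50.6% between replicate numbers. Replicate number has more levels than genotype and takes a larger share without any structure, so these shares are not directly comparable.

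Car6 itself was detected on 0 of 3 Car6-/- arrays and on 3 of 3 wild-type arrays. Its probe gave signals of 63.6, 55.1 and 51.0 in Car6-/- glands, against 114, 106 and 158 in wild-type glands. The groups did not overlap. The fitted log2 difference was -1.94 (SE 0.17, adjusted p = 0.00432 by limma), and Car6 was at least 1.57-fold lower where undetected arrays are set to the detection limit. Where the probe lies relative to the targeted part of the gene was not analysed here, nor were the positions of the Pgk1 and Gcnt1 probes. The gene lies on chromosome 4 at 150187015 to 150201135 of GRCm38.p6. In stomach and duodenum the probe was undetected on every array of both genotypes, with mean signals of 58.4 ± 3.45 in Car6-/- and 63.1 ± 2.26 in wild-type stomach (SD, n = 3 each).

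Beside Car6, the genes past the adjusted threshold of 0.05 were Rab6b, which fell, and Pgk1, Gcnt1, Ogfod1, Brf1 and the unnamed probe ILMN_2958159, which rose. These 7 were 0.099% of the genes tested, with 5 higher, or 0.0707%, and 2 lower, or 0.0283%. An unadjusted p under 0.05 was reached by 9.64% of all genes, 394 higher, or 5.57%, and 288 lower, or 4.07%. The genotypes did not overlap for 15.4%, with 632 higher genes, or 8.93%, and 460 lower genes, or 6.5%. These shares are the background for the counts given for gene lists. The number of higher genes depended on single arrays: it was 2 with either Car6-/- replicate 1 or Car6-/- replicate 2 left out, and 8 with Car6-/- replicate 3 left out. With an array of a wild-type gland left out it was 4 for replicate 1 and 3 for replicate 2 or replicate 3. The number of lower genes was 2 in each of these. Without both replicate 1 arrays no gene passed in limma, with 120 higher and 104 lower at an unadjusted p under 0.05, while Pgk1, Gcnt1 and Car6 each had an adjusted p of 0.0506.

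Pgk1 encodes a glycolytic enzyme present in most cells, yet its only named probe on the array was undetected in wild-type glands. Its signals were 264, 222 and 227 in Car6-/- glands, against 60.1, 63.2 and 64.7 in wild-type glands. It rose at least 2.86-fold (fitted log2 3.07, SE 0.21, limma adjusted p = 0.00263). In stomach the same probe gave 90.5 ± 2.55 in Car6-/- and 70.1 ± 2.48 in wild-type mice, and in duodenum 83.8 ± 6.36 and 69.8 ± 7.92 (SD, n = 3 each), and it was undetected on all of those arrays. The distance between genotypes was larger in the gland, and the test of that difference in effect is given with the other tissues.

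Gcnt1 encodes an enzyme that branches the O-linked sugar chains of mucins. Its signals were 352, 224 and 396 in Car6-/- glands, against 67.1, 77.4 and 74.0 in wild-type glands, where it was undetected. It rose at least 3.76-fold (fitted log2 3.10, SE 0.24, limma adjusted p = 0.00365). A further Gcnt1 probe gave 310 ± 48.4 in Car6-/- and 60.1 ± 3.80 in wild-type glands, while a remaining Gcnt1 probe was undetected on every array. Outside the gland Gcnt1 was detected in both genotypes, at 122 ± 18.3 in Car6-/- and 155 ± 18.2 in wild-type stomach, and at 181 ± 36.8 and 238 ± 53.9 in duodenum (SD, n = 3 each).

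Ogfod1 encodes an oxygenase that hydroxylates a ribosomal protein, and Brf1 encodes part of TFIIIB, which places RNA polymerase III at its genes. Ogfod1 gave 110, 96.7 and 134 in Car6-/- glands, against 75.0, 71.4 and 67.2 in wild-type glands. Brf1 gave 188, 130 and 206 in Car6-/- glands, against 75.4, 78.4 and 89.0 in wild-type glands. Neither gene overlapped between genotypes. Ogfod1 was detected on 0 of 3 and Brf1 on 1 of 3 wild-type gland arrays, and both were detected on every array of stomach and duodenum. In duodenum, for example, Brf1 gave 282 ± 26.4 in Car6-/- and 258 ± 67.2 in wild-type mice (SD, n = 3 each). Brf1 lost its call with the replicate number as a block (adjusted p = 0.108), as did ILMN_2958159 (adjusted p = 0.0813), while Ogfod1 kept it (adjusted p = 0.0443).

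Rab6b and ILMN_2958159, like Pgk1, had a Car6-/- mean on the same side of wild type in all 3 tissues. Rab6b encodes a small GTPase of Golgi traffic. It gave 64.1, 54.1 and 60.9 in Car6-/- glands, undetected, against 113, 91.1 and 105 in wild-type glands. In stomach it gave 97.9, 102 and 91.4 in Car6-/- mice, against 180, 168 and 137 in wild-type mice, and in duodenum 96.6 ± 12.7 and 132 ± 11.8 (SD, n = 3 each). ILMN_2958159 gave 2495, 2300 and 3826 in Car6-/- glands, against 1430, 787 and 1448 in wild-type glands, and averaged 8806 ± 1405 in Car6-/- and 3294 ± 403 in wild-type stomach (SD, n = 3 each).

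Whether an effect in the gland differed from the mean effect in stomach and duodenum was tested in 1 limma fit of all 18 arrays over 9682 genes. The fit treats the arrays as independent, although the tissues may come from the same animals, which the labels do not settle, so its errors may be too large or too small. The test passed for 8 genes, 0.0826%. They were Car6, Pgk1, Gcnt1, Ogfod1, Brf1, Olfr979, Wasf1 and Smg9. Car6 was undetected in stomach and duodenum of both genotypes, so a loss of Car6 could not show there. Rab6b and ILMN_2958159 did not pass, with adjusted p = 0.186 and 0.663. Rab6b had log2 differences of -2.29 in the gland, -1.13 in stomach and -1.01 in duodenum in that fit, and ILMN_2958159 had 1.12, 1.51 and 1.55. The count of 8 was 6 without Car6-/- replicate 1 and 33 without wild-type replicate 3.

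**Figure D1:**
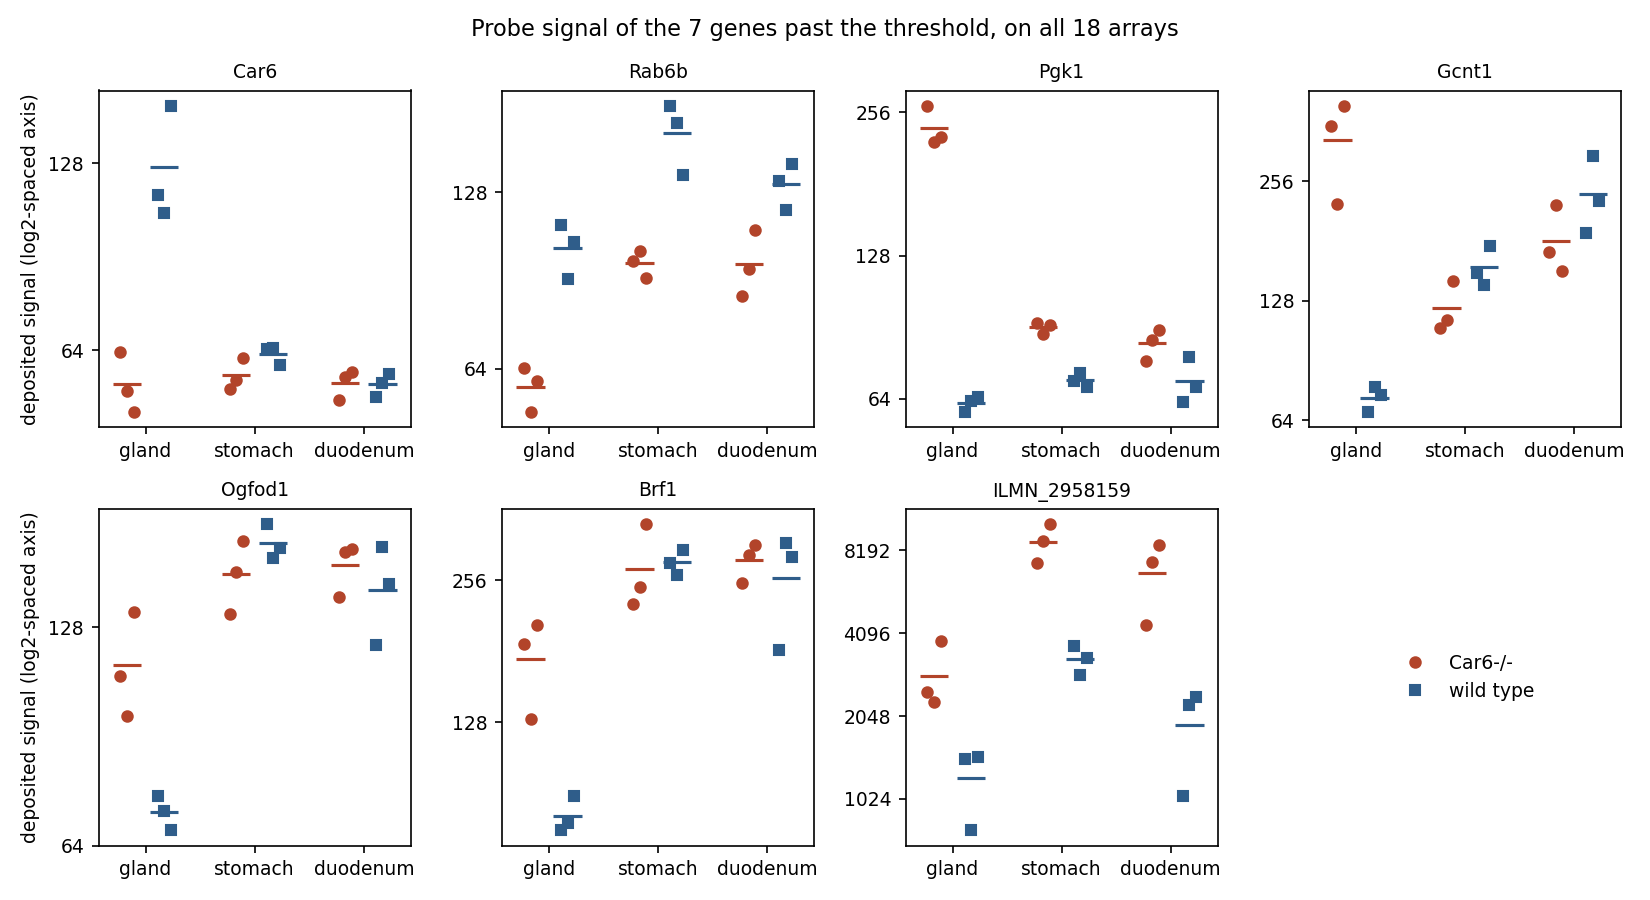
Deposited probe signal (vertical axis, log2 spacing) of the 7 genes past the threshold in gland, stomach and duodenum, with Car6-/- arrays as circles left of wild-type arrays as squares, and a line at each mean of 3. Rab6b lies lower, and ILMN_2958159 and Pgk1 higher, by their means in Car6-/- tissue throughout, while wild-type Gcnt1, Ogfod1 and Brf1 are low in the gland and not in stomach or duodenum.

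Genes measured on at least 2 of 3 arrays of both genotypes and next in order by p did not pass the adjusted threshold, and their values were of moderate size. The higher ones included Snrnp25, a protein of the minor spliceosome, at 8.15, 8.34 and 7.74 in Car6-/- glands, against 6.44, 7.05 and 6.55 in wild-type glands (difference 1.40, SE 0.21, limma adjusted p = 0.104). Irf1, a transcription factor of the interferon pathway, was at 8.36, 8.80 and 9.04 in Car6-/- glands, against 7.69, 7.75 and 7.87 in wild-type glands (0.96, SE 0.18, adjusted p = 0.205). Adcy6, an adenylyl cyclase that makes cyclic AMP, had a difference of 0.65 and the transcription factor gene Nfix one of 0.75. Myo1c, a membrane-linked myosin, had 0.73, Fam193b 0.87 and B3galt5, a galactosyltransferase gene, 0.74. None of these overlapped between genotypes, which a ranking by p favours.

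Among the lower genes in that ranking were Aldh1a1, which encodes a retinal dehydrogenase, and Orc5, which encodes a subunit of the replication origin complex. Aldh1a1 was at 5.43, 5.56 and 5.64 in Car6-/- glands, against 6.49, 6.32 and 6.16 in wild-type glands (difference -0.78, SE 0.13, limma adjusted p = 0.153). Orc5 was at 6.93, 7.07 and 6.82 in Car6-/- glands, against 7.84, 7.96 and 7.55 in wild-type glands (-0.85, SE 0.15, adjusted p = 0.158). Tspo, a cholesterol-binding protein of the mitochondrial outer membrane, had -0.61, the mitochondrial chaperonin gene Hspe1 -0.69 and Srp14, part of the signal recognition particle, -0.52. H2-Q8, a major histocompatibility gene detected on 5 of the 6 arrays, had -0.73 and Klrd1, a receptor of natural killer cells, -0.60.

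**Figure D2:**
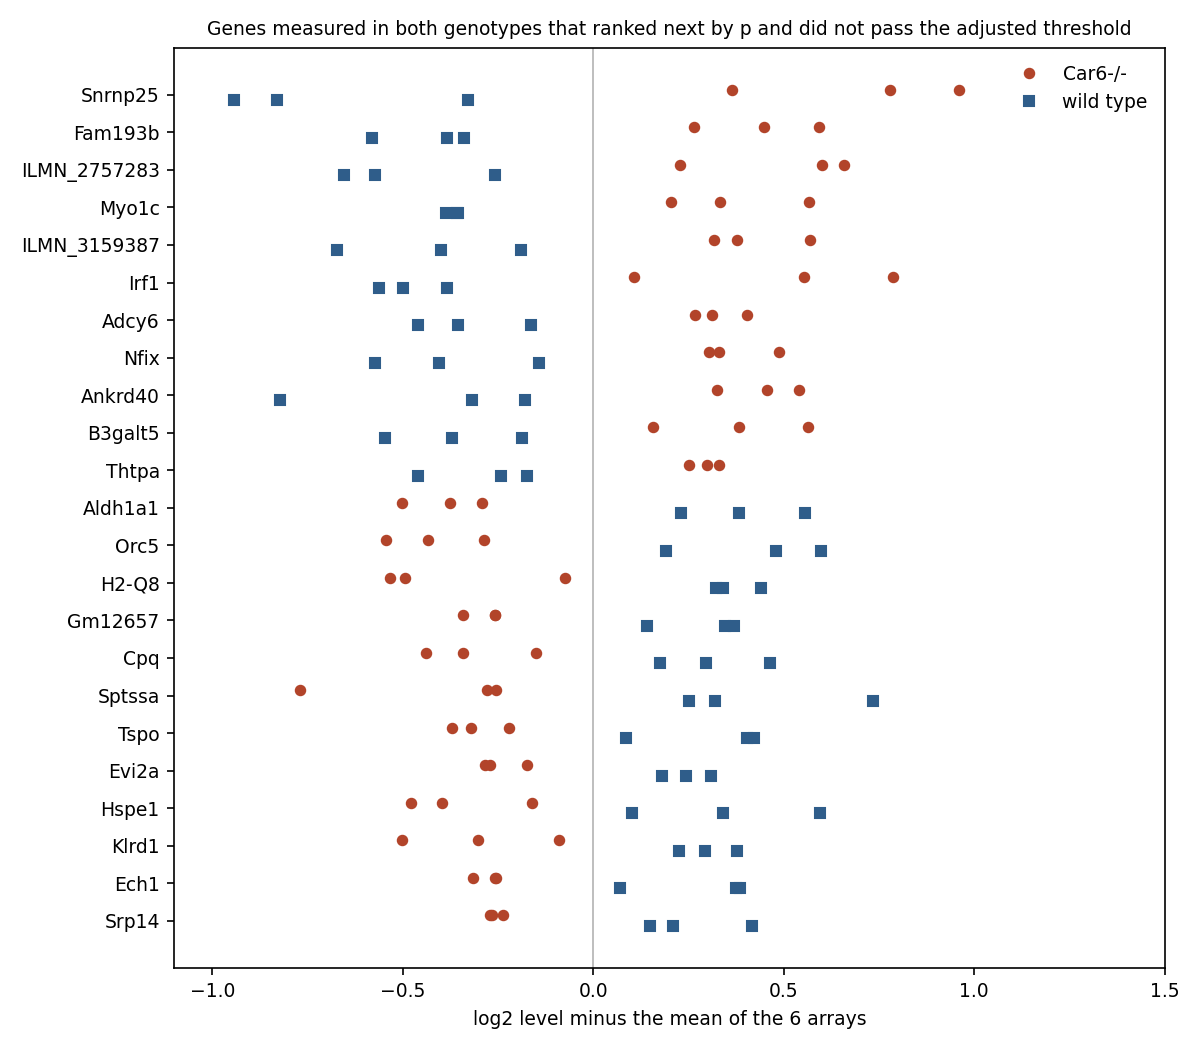
Log2 level of each array minus the mean of the 6 arrays (horizontal axis) for the genes measured in both genotypes that ranked next by p, with Car6-/- arrays as circles above wild-type arrays as squares. No gene overlaps between genotypes, which a ranking by p favours, and Snrnp25 has the widest separation, with a difference of 1.40.

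The levels of genes listed for parotid gland, sublingual gland and fat differed between replicates. Of the 7 tested parotid genes, 6 were lower on both replicate 1 arrays than on any other array, the exception being Lman1l. Amy1, Prb1 and Prpmp5 were undetected on Car6-/- replicate 1, and Prb1, Dnase1, Prpmp5 and Cst10 on wild-type replicate 1. Their mean level was 6.45, 10.5 and 10.3 in Car6-/- glands, against 5.74, 11.6 and 10.03 in wild-type glands. Amy1, salivary amylase, was at 5.13, 11.35 and 11.37 in Car6-/- glands, against 5.60, 12.55 and 10.94 in wild-type glands. Bpifa2, a parotid secretory protein, was at 10.93, 14.85 and 14.98 in Car6-/- glands, against 7.71, 14.82 and 14.82 in wild-type glands. Dnase1, a deoxyribonuclease, and Smr3a, an androgen-regulated prohormone gene, were also lowest on the replicate 1 arrays. No parotid gene had an unadjusted p under 0.05, and the list's median difference was -0.26, beside 0.011 over all genes tested. Its direction depended on single arrays: the median was 1.67 without Car6-/- replicate 1, while leaving out wild-type replicate 2 gave 1.01 and wild-type replicate 3 gave 0.22. It was -1.05, -0.95 and -1.85 without Car6-/- replicate 2, Car6-/- replicate 3 and wild-type replicate 1.

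The Dcpp genes, which stand here as the sublingual list, followed another order. They are named for demilune cells and the parotid gland, so they do not mark sublingual tissue alone. Dcpp2 was at 14.10, 14.61 and 8.85 in Car6-/- glands, against 5.26, 12.48 and 14.48 in wild-type glands. Dcpp3 was at 12.76, 13.53 and 8.47 in Car6-/- glands, against 4.77, 12.13 and 13.57 in wild-type glands. Wild-type replicate 1 was thus low in both, and Car6-/- replicate 3 was between it and the others. The median difference of Dcpp1, Dcpp2 and Dcpp3 was 1.43, and it turned to -1.11 without wild-type replicate 1 and to -1.77 without both replicate 1 arrays. Dcpp2 and Dcpp3, with Chia1, A2ml1 and the parotid genes named above, were among the 10 with the largest variance over the 6 arrays. The part of parotid and sublingual tissue in the differences between genotypes was not tested.

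Fat genes were highest on wild-type replicate 1. The 15 tested genes of white fat averaged 7.08, 6.98 and 7.96 in Car6-/- glands, against 9.18, 7.79 and 7.56 in wild-type glands. Of 23 white fat genes on the array, 6 were undetected on all 6 arrays, among them Fabp4, Retn and Plin1. Adipoq, the fat cell hormone adiponectin, was at 6.85, 6.75 and 8.47 in Car6-/- glands, against 9.79, 8.58 and 8.01 in wild-type glands. The list's median difference was -0.91, with 5 of 15 lower and 0 higher at an unadjusted p under 0.05, and it was -0.35 without wild-type replicate 1 and -0.21 without both replicate 1 arrays. With the replicate number as a block, 3 were lower at that p, where 8.26% of all genes were. Cyp2e1, a cytochrome P450 gene, was also highest on wild-type replicate 1, at 5.80, 5.89 and 7.52 in Car6-/- glands, against 9.30, 8.04 and 6.63 in wild-type glands. Orm1, an acute-phase protein gene, had -1.38, Nnmt -0.97 and Lpl, lipoprotein lipase, -0.97, and without both replicate 1 arrays these differences were -0.75, -0.62 and -0.39. Brown fat genes had another order. The 3 tested averaged 8.58, 8.26 and 7.96 in Car6-/- glands, against 8.93, 8.30 and 8.21 in wild-type glands. Ucp1 and Cidea, brown fat genes too rarely detected to be tested, were detected on both replicate 1 arrays and on no other. The part of fat in the other differences between genotypes was not tested.

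Muscle, lymphocyte, mast cell and granulocyte genes gave little signal. Of 19 skeletal muscle genes on the array 17 were undetected on all 6 arrays, as were 21 of 24 genes of T and B lymphocytes and 14 of 16 of mast cells and granulocytes. Of 5 red cell genes on the array 2 were detected on all 6 arrays and 3 on none. Of 18 endothelial genes 10 were detected on all 6 arrays and 3 on none, and the endothelial markers Cdh5 and Kdr were each detected on 1. Of the red cell genes, Hba-a1, an alpha globin, was at 12.38, 12.15 and 12.11 in Car6-/- glands, against 13.70, 12.28 and 13.10 in wild-type glands. Its difference was -0.81, and that of Alas2, the first enzyme of haem synthesis in red cells, was -0.54. Plvap, a protein of capillary endothelium, had 0.53 (SE 0.12, limma adjusted p = 0.377) and did not overlap between genotypes.

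**Figure D3:**
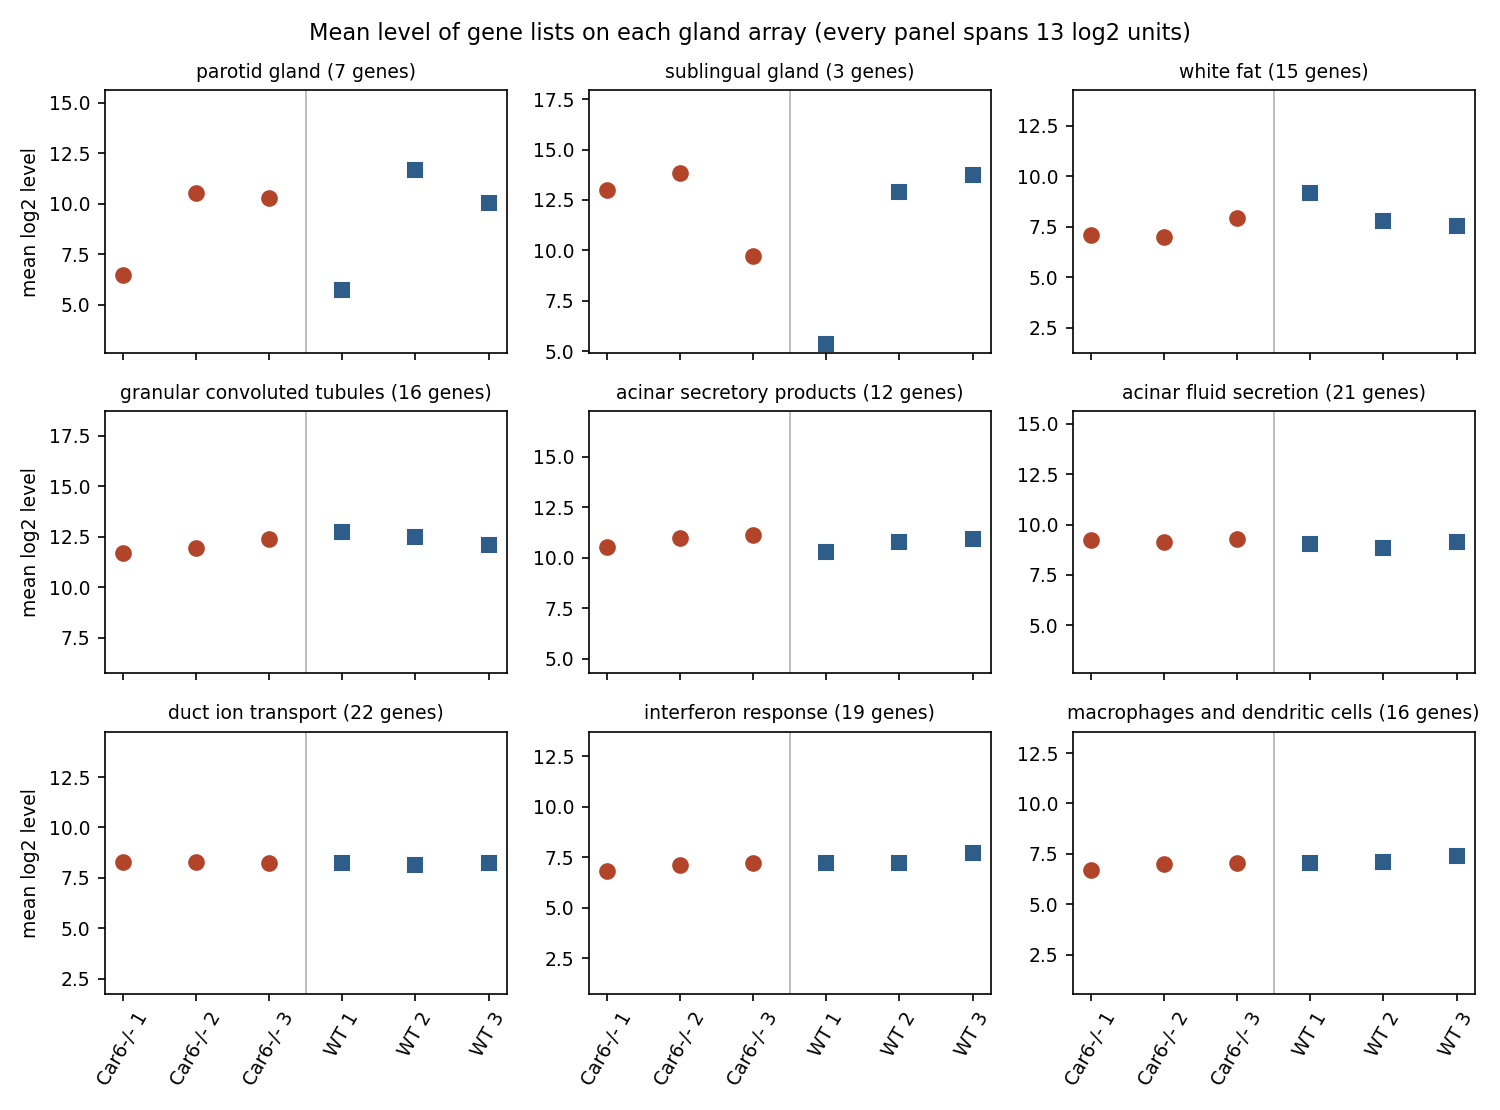
Mean log2 level of the tested members of 9 gene lists (vertical axes, each spanning the same width) on each gland array, with Car6-/- arrays as circles on the left and wild-type arrays as squares on the right. Parotid genes are low on both replicate 1 arrays, at 6.45 and 5.74, and the acinar and duct lists vary far less. The sublingual list, which holds only Dcpp genes, is lowest on wild-type replicate 1, at 5.38.

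The secretory products of acini were among the brightest genes and differed little. Prol1, a proline-rich saliva protein, was at 14.95, 14.93 and 14.82 in Car6-/- glands, against 14.98, 14.98 and 14.78 in wild-type glands. Pip, prolactin-induced protein, had a difference of 0.09 (SE 0.11). Smgc, a submandibular acinar product known mainly from the immature gland, was at 13.82, 13.73 and 13.90 in Car6-/- glands, against 13.39, 13.39 and 13.51 in wild-type glands (0.39, SE 0.12, limma adjusted p = 0.490). Spdef, a transcription factor of secretory cells, had 0.41, and both genes were without overlap. Over the 12 tested members the median was 0.20, with 2 higher and 0 lower at an unadjusted p under 0.05. The median was 0.12 without Car6-/- replicate 3, 0.099 without wild-type replicate 1 and, leaving out wild-type replicate 3, 0.38.

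Of the genes of acinar fluid secretion, 18 of 21 were above 0, with a median of 0.17 (0.087 without wild-type replicate 2) and 3 higher and 0 lower at an unadjusted p under 0.05. With the replicate number as a block, 8 were higher at that p, where 9.81% of all genes were. Aqp5, the water channel of acinar cells, was at 13.12, 12.97 and 13.23 in Car6-/- glands, against 12.91, 12.43 and 12.93 in wild-type glands, with a difference of 0.36 (SE 0.17, limma adjusted p = 0.538). Bhlha15, the acinar transcription factor Mist1, was at 12.21, 11.73 and 12.23 in Car6-/- glands, against 11.49, 11.31 and 11.93 in wild-type glands (0.48, SE 0.20, adjusted p = 0.516). Atp2b1, a calcium pump of the plasma membrane, had 0.55 and was undetected on wild-type replicates 1 and 2. The sodium, potassium and chloride carrier Slc12a2 had 0.03, the chloride channel Ano1 0.18 and the muscarinic receptor Chrm3 -0.11.

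The median was 0.07 over 22 duct ion transport genes, with 2 higher and 0 lower at an unadjusted p under 0.05, and between 0.007 and 0.12 with 1 array left out. Over the 5 tested genes of bicarbonate and proton transport the median was 0.20 (0.13 to 0.22 with 1 array left out), with 4 of 5 above 0, 3 higher without overlap and 1 higher at an unadjusted p under 0.05. With the replicate number as a block, 0 were higher and 1 lower at that p. Scnn1a, the alpha subunit of the epithelial sodium channel, was at 8.72, 8.51 and 8.48 in Car6-/- glands, against 8.29, 8.12 and 8.31 in wild-type glands (0.33, SE 0.13, limma adjusted p = 0.505). Its partners Scnn1b and Scnn1g had -0.00 and -0.20. Slc26a6, an anion exchanger that carries bicarbonate, was at 7.59, 7.38 and 7.39 in Car6-/- glands, against 6.65, 7.01 and 7.37 in wild-type glands (0.44, SE 0.19, adjusted p = 0.516). Cftr had -0.31 and Ascl3, a transcription factor of duct progenitors and ionocytes, -0.34, and both overlapped between genotypes. The proton pump list of 16 genes had a median of -0.02.

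No other carbonic anhydrase passed the adjusted threshold. Of the 7 tested, 6 were below 0 and the median was -0.21 (-0.14 leaving out wild-type replicate 1, -0.34 without Car6-/- replicate 3 and -0.35 without wild-type replicate 2). At an unadjusted p under 0.05, 2 were lower and 0 higher, where 4.07% of all genes were lower. With the replicate block 2 were lower at that p, where 8.26% of all genes were. Car2, the widespread cytosolic form, was at 6.65, 6.43 and 6.41 in Car6-/- glands, against 6.76, 6.83 and 6.44 in wild-type glands, with a difference of -0.18 (SE 0.14, limma adjusted p = 0.673). Car12, a membrane-bound form, had 0.11 and Car4, another membrane-bound form, -0.42, with Car4 detected on 4 of the 6 arrays. Car13 had -0.64 and Car3, a form abundant in fat and muscle, -1.62, and Car3 followed the fat genes over the arrays: 7.20, 7.03 and 8.82 in Car6-/- glands, against 10.76, 8.94 and 8.20 in wild-type glands. Car13 overlapped between genotypes, as did the other 6.

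In the 9 tested genes of zinc transport and metallothioneins, Slc39a1 and Slc39a11, which import zinc into the cytosol, had 0.55 and 0.46, and Slc30a7, which loads zinc into the secretory pathway, had 0.28. Each was without overlap and had an unadjusted p under 0.05. Slc39a1 was undetected on wild-type replicates 1 and 2. Azgp1, zinc-alpha-2-glycoprotein, had -0.52, and Mt1, a metallothionein, -0.20. The median of the list was -0.03, and between -0.04 and 0.10 with 1 array left out.

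Granular convoluted tubule genes included some of the brightest probes on the arrays, where signal may be compressed, which was not tested. Klk1, Klk1b26, Klk1b5, Klk1b27 and the secretoglobin gene Scgb1b27 lay at the top of the range of levels, with differences of 0.02, -0.14, -0.07, 0.01 and -0.02. Klk1b8 was at 11.24, 11.65 and 12.42 in Car6-/- glands, against 13.22, 12.97 and 12.03 in wild-type glands (-0.97, SE 0.37, limma adjusted p = 0.505). Klk1b9 was at 9.57, 10.24 and 11.28 in Car6-/- glands, against 11.71, 11.58 and 10.62 in wild-type glands, and Egf, epidermal growth factor, at 9.39, 9.22 and 10.73, against 11.02, 10.26 and 9.99. In these genes Car6-/- replicate 3 was the highest of its genotype and wild-type replicate 3 the lowest, so the groups overlapped. The median over 16 genes was -0.52, with 1 lower (none with the replicate block) and 0 higher at an unadjusted p under 0.05. It was -0.32 without Car6-/- replicate 1, -0.25 without wild-type replicate 1 and -0.11 without both replicate 1 arrays. Kallikrein genes are near-identical in sequence, so a probe may share signal with other members.

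Antimicrobial proteins of saliva included 5 of 11 with a lower level at an unadjusted p under 0.05 and 0 with a higher one. Lyz1, a lysozyme, was at 11.14, 11.28 and 11.46 in Car6-/- glands, against 11.72, 11.54 and 11.75 in wild-type glands (-0.37, SE 0.13). Cst3, the protease inhibitor cystatin C, was at 10.21, 10.42 and 10.48 in Car6-/- glands, against 10.93, 10.79 and 10.86 in wild-type glands (-0.49, SE 0.12, adjusted p = 0.454). Lcn2, an iron-siderophore binding protein, had -0.39, Wfdc2 -0.34 and Rnase4 -0.70. Lpo, lactoperoxidase, had 0.46 and Wfdc12 -0.02. The median of the 11 was -0.06, and between -0.36 and 0.02 with 1 array left out. The 2 lysozyme genes, which are close copies, may share signal.

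Interferon-stimulated genes are switched on when interferon receptors activate STAT and IRF factors, which bind the interferon-stimulated response element in promoters. Of 19 tested members 17 were below 0, with a median of -0.34, and 5 were lower and 0 higher at an unadjusted p under 0.05. These 5, Isg15, Gbp2, Igtp, Gbp3 and Rsad2, were without overlap. With the replicate number as a block 11 of the 19 were lower at that p, where 8.26% of all genes were, and no member passed the adjusted threshold in either fit. The stretch of promoter below is shown for these 5, chosen by that unadjusted p, because promoters of this gene class are known for a shared element. It comes from the 250 bases before each RefSeq gene start in GRCm38.p6, 5′ to 3′ on the gene's strand, with matches to GAAANNGAAA on either strand in capitals. Overlapping matches in Isg15 and Gbp3 run together.
Isg15, chr4:156200840-156200931, minus strand: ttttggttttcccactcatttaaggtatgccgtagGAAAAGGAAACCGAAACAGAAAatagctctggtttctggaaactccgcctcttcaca
Rsad2, chr12:26456528-26456607, minus strand: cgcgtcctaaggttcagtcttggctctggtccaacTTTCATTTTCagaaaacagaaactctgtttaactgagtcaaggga
Igtp, chr11:58199487-58199555, plus strand: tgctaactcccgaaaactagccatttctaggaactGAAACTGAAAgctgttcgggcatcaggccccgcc
Gbp2, chr3:142620569-142620648, plus strand: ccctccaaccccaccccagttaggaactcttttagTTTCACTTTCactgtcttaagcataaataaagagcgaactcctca
Gbp3, chr3:142559964-142560043, plus strand: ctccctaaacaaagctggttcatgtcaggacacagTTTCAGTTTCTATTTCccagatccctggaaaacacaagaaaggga
The motif was present in 10 of the 16 list members that the promoter table holds, and in 3.29% of the 5376 tested genes it holds. This class is known for the element, so these shares say nothing about the difference between genotypes. A match is a description of the letters and not of binding.

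Isg15, a ubiquitin-like antiviral protein, was at 6.38, 6.71 and 6.42 in Car6-/- glands, against 6.96, 7.06 and 7.67 in wild-type glands (-0.73, SE 0.20, limma adjusted p = 0.490). Gbp2, a guanylate-binding GTPase, was at 7.04, 7.55 and 7.47 in Car6-/- glands, against 8.06, 7.66 and 7.96 in wild-type glands (-0.54, SE 0.18, adjusted p = 0.499). Igtp, an immunity-related GTPase, was at 6.36, 6.84 and 6.66 in Car6-/- glands, against 7.10, 6.92 and 7.44 in wild-type glands (-0.53, SE 0.18, adjusted p = 0.499). Gbp3 had -0.57 and Rsad2, the antiviral enzyme viperin, -0.53. Irf1, itself induced by interferon, had a positive difference, 0.96, as given above. The list's mean level was lowest on Car6-/- replicate 1, at 6.80, and highest on wild-type replicate 3, at 7.73, and its median was -0.17 without wild-type replicate 3, -0.19 without Car6-/- replicate 1 and -0.33 without both replicate 1 arrays.

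Antigen presentation and macrophage genes had medians near that of the interferon list, and none passed the adjusted threshold. Of 17 antigen presentation genes 13 were below 0, with a median of -0.25 and 4 lower and 0 higher at an unadjusted p under 0.05. The median was -0.13 without Car6-/- replicate 1 and -0.15 without both replicate 1 arrays. Beside H2-Q8 these were H2-M3 at -0.45, Tapbp, which helps load class I molecules, at -0.61, and H2-Q7 at -0.44. The class II genes H2-Ab1 and Cd74 had -0.14 and 0.10. Of 16 macrophage genes 15 were below 0, with a median of -0.26 and 2 lower at an unadjusted p under 0.05. With the replicate block 7 were lower at that p, where 8.26% of all genes were. The median was -0.12 without wild-type replicate 3 and -0.15 without Car6-/- replicate 1. Lyz2, a lysozyme of macrophages, averaged 9.55 ± 0.20 in Car6-/- glands and 9.98 ± 0.03 in wild-type glands (SD, n = 3 each), without overlap (-0.44, SE 0.13, limma adjusted p = 0.490). C1qb, a chain of the first complement component, had -0.38 and Tyrobp, a signalling adaptor, -0.58.

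Lipid synthesis genes went in both directions. Scd2, a fatty acid desaturase, was at 7.02, 6.62 and 6.79 in Car6-/- glands, against 5.70, 4.59 and 6.24 in wild-type glands (1.30, SE 0.37, limma adjusted p = 0.490). Its value of 4.59 was undetected. Srebf1, the transcription factor that drives fatty acid synthesis genes, was at 6.71, 6.56 and 6.95 in Car6-/- glands, against 5.90, 5.62 and 6.48 in wild-type glands (0.74, SE 0.22, adjusted p = 0.490). Thrsp and Me1, which fat cells express highly, had -1.26 and -0.76 with overlap, and Me1 was detected on 3 of the 6 arrays. Of 15 cholesterol synthesis genes, Sqle at 0.43, Fdps at 0.52 and Dhcr7 at 0.51 were higher without overlap at an unadjusted p under 0.05, none was lower, and the median was 0.15 (0.089 without Car6-/- replicate 3 and 0.053 without wild-type replicate 3). Hmgcs1, an early enzyme of that pathway, had 0.13. Dhcr7 was detected on 5 of the 6 arrays, the exception being of a wild-type gland.

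Respiratory chain genes had a median slightly below that of all genes. Of 49 tested, 7 were lower and 0 higher at an unadjusted p under 0.05, the genotypes did not overlap for 9 lower and 1 higher, and the median was -0.07, and between -0.09 and -0.002 with 1 array left out. Cox6c, a subunit of cytochrome c oxidase, was at 10.68, 10.68 and 10.96 in Car6-/- glands, against 11.18, 11.08 and 11.20 in wild-type glands (-0.38, SE 0.13, limma adjusted p = 0.499). Atp5h, a subunit of ATP synthase, had -0.38, Ndufb9 -0.47 and Sdhb -0.29, while the bright Cox4i1 had 0.02 and Atp5g3 0.09. In the 17 genes of glycolysis and its control, 9 were above 0 and 8 below, with a median of 0.10 that lay between -0.05 and 0.22 with 1 array left out. Pgk1, Tpi1, Pkm and Pgam1 were higher without overlap, with differences of 0.62 for Pkm and 0.17 for Pgam1, and Pdk4, a kinase that restrains pyruvate oxidation, had -0.82 at an unadjusted p under 0.05 with overlap. Tpi1, triosephosphate isomerase, was at 11.72, 11.72 and 11.77 in Car6-/- glands, against 11.11, 11.35 and 11.19 in wild-type glands (0.52, SE 0.12, adjusted p = 0.377). Gapdh and Ldha had 0.10 and -0.02.

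Among clock genes, Nfil3 had 0.62, Tef 0.49 and Cry2 0.53, each with an unadjusted p under 0.05, and the median of 15 genes was 0.10 (0.27 without wild-type replicate 1). Nfil3, a repressor of clock output genes, was at 9.89, 9.23 and 9.33 in Car6-/- glands, against 8.91, 8.73 and 8.96 in wild-type glands (SE 0.19, limma adjusted p = 0.490). Dbp and Nr1d1, which swing widely over the day, had 0.10 and 0.07. In the steroid response list, 5 of 13 were lower and 1 higher at an unadjusted p under 0.05. Its median was 0.04 (-0.05 without wild-type replicate 3), with 7 members above 0 and 6 below. Hsd11b1, which makes active glucocorticoid, had -0.67 and Hsd17b11 -0.39, while Tsc22d3, a glucocorticoid-induced gene, had 0.35 and Fkbp5, another, 0.14.

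**Figure D4:**
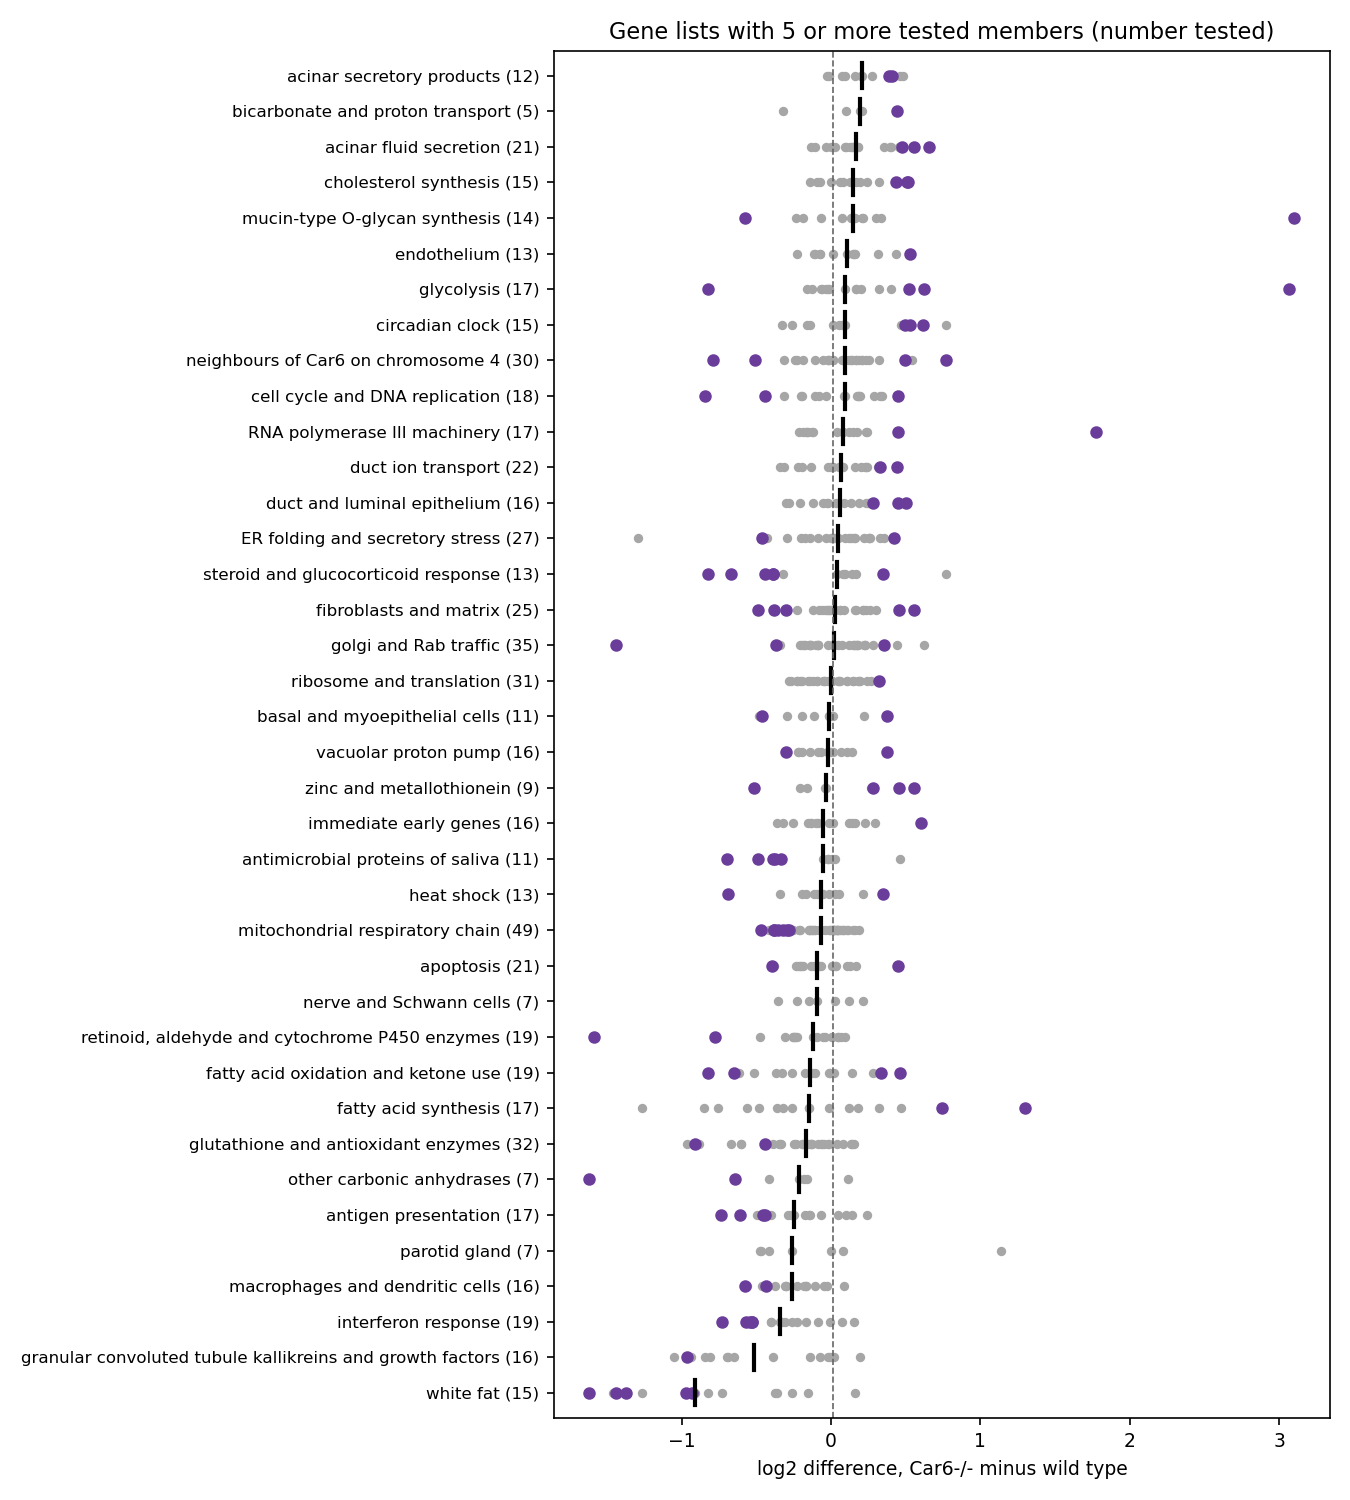
Log2 difference (horizontal axis, Car6-/- minus wild type) of every tested member of the lists with 5 or more tested genes, ordered by list median (black bar). Larger purple points have an unadjusted p under 0.05, and the dashed line is the median of all genes, 0.011. White fat, granular convoluted tubule and interferon lists lie lowest, with medians of -0.91, -0.52 and -0.34, and acinar secretory products and bicarbonate transport highest, with 0.20 each. These medians move with single arrays.

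Duct epithelium and other structural lists had medians near 0. Krt7, a duct keratin, was at 9.39, 9.33 and 8.99 in Car6-/- glands, against 8.60, 8.77 and 8.99 in wild-type glands (0.45, SE 0.16, limma adjusted p = 0.499). Cldn1, a tight junction protein, had 0.50 and Foxa1, an epithelial transcription factor, 0.28. Acta2 and Krt14, markers of myoepithelial cells, had -0.12 and -0.30. The RNA polymerase III list, of which Brf1 is a member, had a median of 0.08 over 17 genes, and Maf1, a repressor of that polymerase, had -0.13. The O-glycan list, of which Gcnt1 is a member, had a median of 0.15 over 14 genes. B3gnt5 had -0.58 and was undetected on Car6-/- replicates 1 and 2. In the Golgi and Rab list Rab6a, the close relative of Rab6b, had 0.01 and Rab3d, a Rab of acinar secretory granules, 0.35.

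The neighbours of Car6 on chromosome 4 were described because a targeted region can carry linked alleles. Of 68 genes that start within 3 Mb and have a probe, 30 were tested. Of these, 2 were higher and 2 lower at an unadjusted p under 0.05, and the median was 0.09. Ctnnbip1, an inhibitor of beta-catenin, was at 7.16, 7.11 and 6.66 in Car6-/- glands, against 6.39, 5.96 and 6.28 in wild-type glands (0.77, SE 0.18, limma adjusted p = 0.377), and its gene spans 149518241 to 149566437. Fbxo44, an F-box protein gene, was at 5.73, 5.28 and 5.69 in Car6-/- glands, against 6.60, 6.43 and 6.03 in wild-type glands (-0.79, SE 0.19, adjusted p = 0.381). Its value of 5.28 was undetected. Kif1b, a kinesin motor, had 0.50 and Clstn1, calsyntenin, -0.51. The nearest tested genes on either side of Car6, H6pd and Errfi1, had 0.09 and 0.17.

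**Figure D5:**
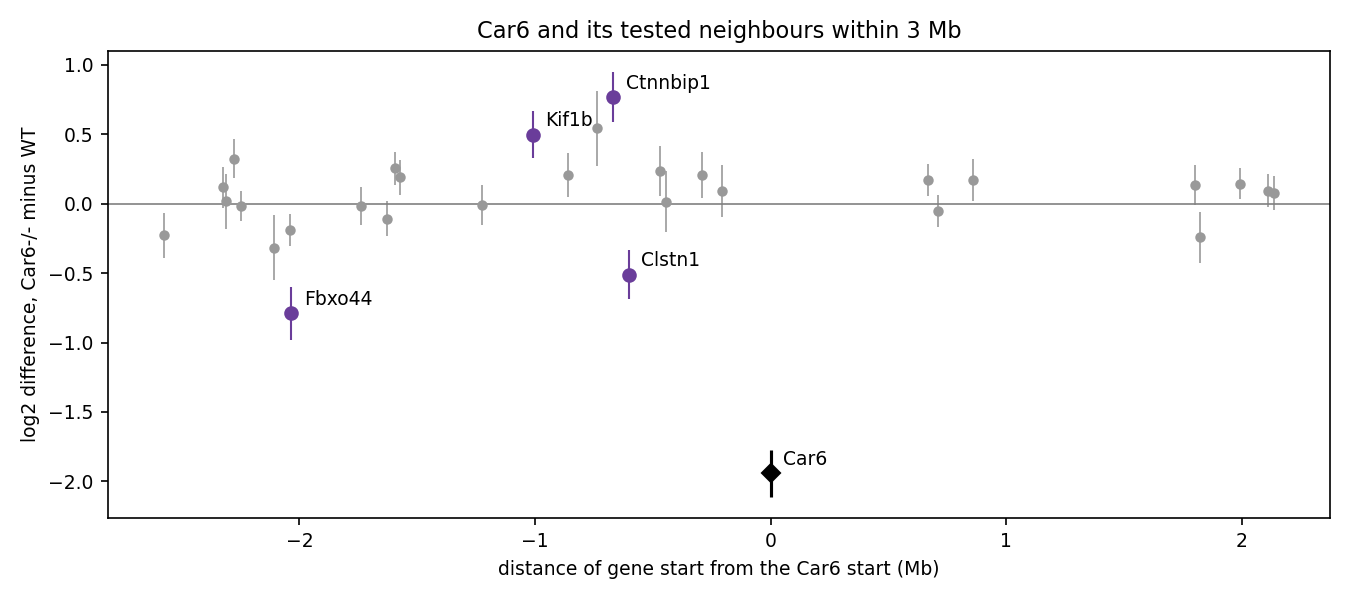
Log2 difference (vertical axis, Car6-/- minus wild type, bars are 1 SE) of Car6 (black diamond) and its 30 tested neighbours against the distance of their starts from the Car6 start in Mb. Larger purple points have an unadjusted p under 0.05: Ctnnbip1 and Kif1b above 0, Clstn1 and Fbxo44 below. All lie on the side of Car6 that holds most of the tested neighbours.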

How the data were processed

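Signals of 25697 probes were measured on 18 Illumina bead arrays, and the 6 submandibular arrays are analysed here. The authors deposited non-normalized signal intensity on a linear scale, with a detection p-value for each probe and array. They also deposited log2 values, which matched the log2 of quantile-normalized intensities of the 6 gland arrays without background correction to within 0.005. The sources used here do not name their software. No negative intensity was present (lowest 36.7), and every deposited column was of a sample of the series.

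Background correction and quantile normalization of the 6 arrays used neqc (limma 3.58.1, R 4.3.3, offset 16, negative controls inferred from the detection p-values). Probes with a detection p under 0.01 on at least 3 arrays were kept, and the brightest kept probe stood for a gene. Genotypes were compared with lmFit and eBayes and Benjamini-Hochberg adjustment at 0.05. A fold written "at least" uses quantile-normalized signals without background correction, with undetected values raised to the lowest detected value of their array. The effect in the gland was set against the other tissues in 1 fit of the 18 arrays. The number of arrays limits the precision.

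Gene names came from GEO's platform annotation and RefSeq records of GRCm38.p6: 23978 probes had 1 symbol, none had several and 1719 had none. Muc19 resolved to the record of Smgc and was left out of the sublingual list. Named genes were Car6, all genes past the threshold, the 12 smallest p in each direction among genes measured in both genotypes, the 10 largest differences in each direction, the 15 brightest, the 10 most variable and leading members of each list. Gbp3, Rsad2, H2-Q7, Rnase4, Slc30a7, Olfr979, Wasf1, Smg9, Clstn1, Lman1l, Pgam1, H6pd and Errfi1 were named after their values were seen. The members and the 44 gene lists were chosen with earlier results of these data known.

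Same-numbered arrays of the genotypes deviated together from their group means (correlations 0.266, 0.520 and 0.235 for replicates 1, 2 and 3), which is the basis for the fit with the replicate number as a block. The labels do not say what the number stands for. Alternatives covered background correction, scaling, the filter, probe choice, the deposited log2 values, weights, the block and left-out arrays. The test was tested on simulated data.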

Additional observations from a re-analysis of the deposited data

Results flagged for a closer look

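For 5 of the 7 genes past the adjusted threshold in the gland, the difference in effect between the gland and the other 2 tissues passed its own test. These genes were chosen by their difference on the same gland arrays, which also enter this test. Car6 and Pgk1 were undetected on every stomach and duodenum array, so a loss of Car6 could not show there. Olfr979, Wasf1 and Smg9, which also passed that test, were not past the threshold in the gland. The value is the log2 difference in the gland minus the mean of the log2 differences in the other 2 tissues, from limma on all 18 arrays. It was -2.88 for Car6 (SE 0.18, adjusted p = 2.36e-07), 3.52 for Pgk1 (SE 0.23, adjusted p = 2.36e-07) and 4.31 for Gcnt1 (SE 0.40, adjusted p = 3.01e-05). It was 1.96 for Ogfod1 (SE 0.20, adjusted p = 7.52e-05) and 2.21 for Brf1 (SE 0.29, adjusted p = 0.00147). In that fit Gcnt1 had a log2 difference of 3.63 in the gland, -0.55 in stomach and -0.82 in duodenum. In the gland, Car6 was detected on 0 of 3 Car6-/- arrays, Pgk1, Gcnt1 and Ogfod1 on 0 of 3 wild-type arrays and Brf1 on 1 of 3. All 5 values thus rest on a level at or near background. They would change with how background is corrected and are no measure of the fold.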

How the results depend on the processing

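The count of genes higher in Car6-/- glands, 5, was 2 with median scaling, 3 without the filter on detection, 18 when stomach and duodenum arrays shared the fit, 17 under array weights and 3 with the replicate block. It ranged from 2 to 8 over the fits without 1 array. The count of lower genes, 2, was 0 with median scaling and 6 with array weights, and stayed at 2 in every fit without 1 array. Without both replicate 1 arrays it was 0 higher and 0 lower, and without both replicate 3 arrays, an alternative chosen after seeing the data, 8 higher and 5 lower. The count of 8 genes whose effect differed between gland and other tissues was between 6 and 33 over the fits without 1 gland array. The cause of these changes was not tested. Of 18 settings, the call was made in 17 for Pgk1 and Gcnt1, 16 for Rab6b and Car6, 12 for Ogfod1, 8 for ILMN_2958159 and 7 for Brf1. Median scaling moved the median of all genes to 0.10, against 0.011, and no value reported here that was called changed sign under any setting. The replicate block changed no other call than those of Brf1 and ILMN_2958159. A fit with the chip as a block was not run, because the sources used here do not say which arrays shared a chip. Genes near background have values that depend on the background correction, and 3 arrays a genotype limit the precision.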
